A study of Mus musculus with 12 samples.

Results

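Fatty acid oxidation genes were followed in corneal endothelial cells (CEC), the cell layer that pumps fluid out of the cornea. The genes were chosen by name, from a list of 38 genes for activation and carnitine shuttle, mitochondrial cycle, electron transfer and peroxisomal enzymes, and 37 of them had a value among 15838 genes. *Cpt1b*, the muscle form of carnitine palmitoyltransferase 1, is the listed gene without a value. The RNA came from Descemet membranes, the sheet on which CEC sit, of C57BL/6 mice at 10 weeks of age. There were 12 RNAseq libraries in 4 groups of 3, which were *Slc4a11*-/- (KO) males, KO females, *Slc4a11*+/+ (WT) males and WT females. KO mice carry the deletion of a block of exons of *Slc4a11*, a membrane transporter, in every cell of the body, and WT mice were littermates.

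The only values analysed here are the authors' means of log2 CPM, read counts scaled to a common library total (CPM, TMM-normalized), over libraries of all 4 groups. Such a mean joins both genotypes and both sexes, so levels are described below and no difference between KO and WT or between males and females is given. Values per library were not analysed here, no error stands beside a mean, and the depth of each library is unknown. A gap between 2 genes can therefore not be set against the spread between libraries. A CPM below is the mean taken back from the log2 scale, and a level per kb is that CPM divided by the length of the gene's merged exons.

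Long-chain fatty acids are first joined to coenzyme A, then passed into mitochondria as carnitine esters, and then shortened in repeated rounds of dehydrogenation, hydration, a second dehydrogenation and thiolysis. Electrons from the first step of each round reach the respiratory chain through the electron transfer flavoprotein. Peroxisomes carry out a similar cycle on very long and branched fatty acids, with an oxidase in place of the first dehydrogenase.

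The labelled tissue was checked against its markers. All 9 genes reported for corneal endothelium had a value, from 9.15 log2 CPM for *Cdh2* to 12.79 log2 CPM for *Col8a2*, a collagen of Descemet membrane. *Slc4a11* itself had a mean of 10.71 log2 CPM over KO and WT libraries together, which cannot serve as a check of the genotype labels. Stromal genes were also high, with 5 of 5 between 8.42 and 11.90 log2 CPM and a summed level of 9390 CPM, against 27848 CPM for the endothelial list. The epithelial list summed to 81.0 CPM over 6 genes, the leukocyte list to 26.6 CPM over 4, and the lists for iris pigment cells, lens, and nerve and glia to 18.5, 9.67 and 5.17 CPM. Of 4 muscle genes 1 had a value, *Myh1* at 1.55 log2 CPM, and none of the 3 adipocyte genes *Adipoq*, *Plin1* and *Fabp4* had one. The share of the levels below that came from stromal cells was not tested, and in bulk RNA fewer cells of a type and less RNA per cell cannot be told apart.

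The fatty acid oxidation genes were expressed at middle levels in this tissue. Their median was 4.61 log2 CPM, against 3.76 log2 CPM for all 15838 genes, and they ran from 0.97 log2 CPM for *Etfb* to 7.10 log2 CPM for *Hsd17b4*. Of the 37 genes, 31 were above the median of all genes and 6 below it. That reference includes genes without a coding length and 1431 genes with a mean under 1 CPM, which the 37 genes do not. Among the 14407 genes of at least 1 CPM the median was 4.09 log2 CPM. Above 5.45 log2 CPM, the 75th percentile of all genes, there were 7 of the 37 genes (18.9%). Together the 37 genes summed to 1221 CPM, or 0.125% of the 977011 CPM that all genes summed to. The 3 highest by CPM, *Hsd17b4*, *Hadha* and *Cpt1a*, made up 25.2% of the members' sum, and the 9 highest made up 50.6%.

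**Figure D1:**
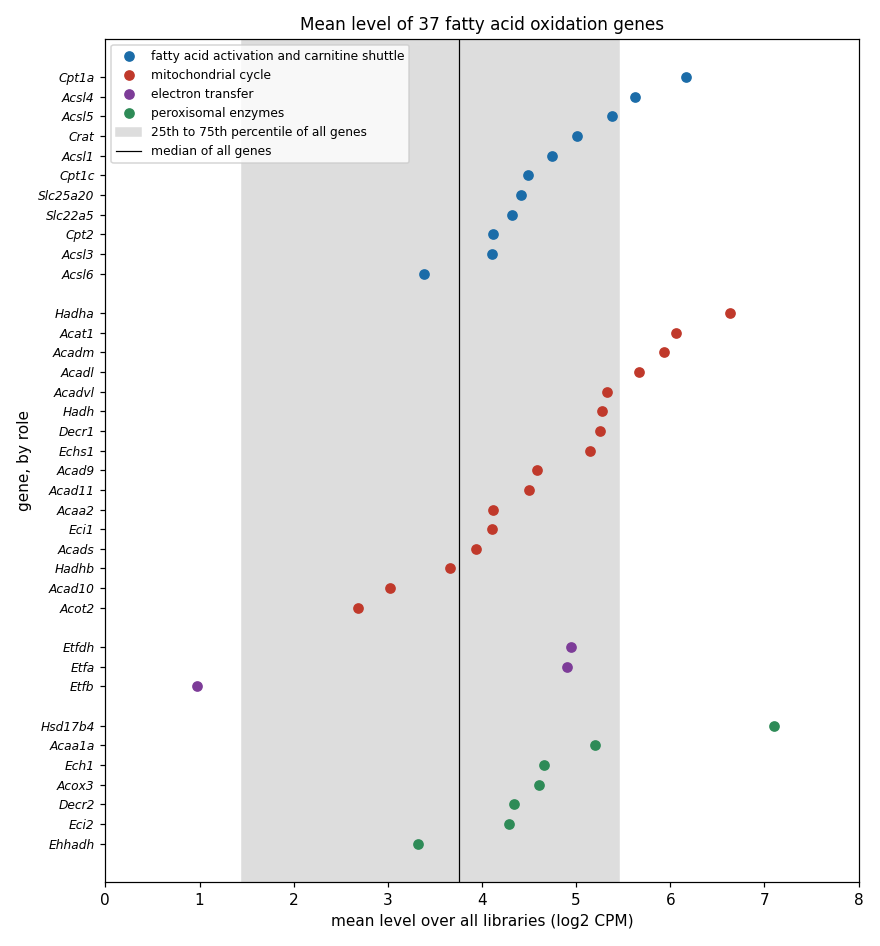
Each point is the authors' mean log2 CPM (x axis) of 1 gene over libraries of all 4 groups, with the 37 genes on the y axis grouped and coloured by role; there are no error bars because only means were analysed. The grey band is the range from the 25th to the 75th percentile of all 15838 genes (1.45 to 5.45 log2 CPM) and the line their median (3.76), with *Etfb* below the band and 7 genes above it.

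By CPM, 45.4% of the members' sum came from the 16 genes of the mitochondrial cycle, 27.1% from the 11 activation and shuttle genes with a value, 22.4% from the 7 peroxisomal genes and 5.13% from the 3 electron transfer genes. The median per role was 4.87 log2 CPM for the mitochondrial cycle, 4.90 for electron transfer, 4.61 for peroxisomal enzymes and 4.49 for activation and shuttle. Each gene was counted only in the role it was listed under, whether or not its enzyme also works elsewhere. Genes within the mitochondrial cycle alone ran from 2.68 to 6.63. Medians of groups vary less than single genes do, so this wider range says nothing about the roles.

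Among the acyl-CoA synthetases, which activate long-chain fatty acids, *Acsl4* had the highest level per length at 9.14 CPM per kb (5.63 log2 CPM). The gene encodes a form that prefers arachidonic acid, and it lies on chromosome X. *Acsl5* was close to it at 8.58 CPM per kb (5.38 log2 CPM). *Acsl3*, a form of the endoplasmic reticulum and lipid droplets, had 3.97 CPM per kb. *Acsl1*, the main form of liver, heart and fat, had 2.56 CPM per kb, and *Acsl6*, best known from brain, had 1.05 CPM per kb, the lowest of all 37 genes on this scale. The form of liver, heart and fat was therefore below 3 other synthetases per kb of exon. Per kb of coding sequence *Acsl1* (12.3 CPM per kb) stood above *Acsl3* (8.0 CPM per kb) and still below *Acsl4* (23.2) and *Acsl5* (20.3).

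*Cpt1a* encodes the liver form of carnitine palmitoyltransferase 1, which makes the carnitine ester at the outer mitochondrial membrane and is the step inhibited by malonyl-CoA. It had the highest level of the activation and shuttle genes, 6.16 log2 CPM or 9.38 CPM per kb, and ranked 2489 of 15838 genes by CPM. The gene spans positions 3322334 to 3385733 of chromosome 19 (GRCm38, plus strand). *Cpt1c*, a form known from neurons that has little enzyme activity, had 4.02 CPM per kb, so the ratio of *Cpt1a* to *Cpt1c* was 2.33 per kb of exon and 3.28 per kb of coding sequence. *Cpt1b* had no value and could not be ranked with them.

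The later steps of the shuttle were lower than *Cpt1a*. *Cpt2*, which releases the acyl group inside the mitochondrion, had 7.28 CPM per kb (4.12 log2 CPM), and *Slc25a20*, the carnitine-acylcarnitine exchanger of the inner membrane, had 4.40 CPM per kb (4.41 log2 CPM). The order of *Cpt2* and *Slc25a20* turned with the length used, since per kb of coding sequence they had 8.82 and 23.6 CPM per kb. *Slc22a5*, the carnitine transporter of the plasma membrane, had 6.47 CPM per kb, and *Crat*, which exchanges carnitine for short acyl groups, had 5.96 CPM per kb.

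The acyl-CoA dehydrogenases carry out the first step of the mitochondrial cycle, and their levels differed between forms. *Acadl*, the long-chain form, had the highest level per kb of exon within the mitochondrial cycle, 25.4 CPM per kb (5.67 log2 CPM). It lies between positions 66830839 and 66863277 of chromosome 1, on the minus strand. *Acadm*, the medium-chain form, followed at 15.7 CPM per kb (5.94 log2 CPM), and *Acadvl*, the very-long-chain form, at 15.0 CPM per kb (5.33 log2 CPM). *Acads*, the short-chain form, had 6.77 CPM per kb (3.94 log2 CPM), which put *Acadl* 3.75 times and *Acadm* 2.31 times above it. Per kb of coding sequence *Acadl* and *Acadm* changed places, with 39.5 and 44.9 CPM per kb, and *Acads* stayed the lowest of the 4 at 12.4 CPM per kb.

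The other 3 dehydrogenases were lower per kb of exon. *Acad9*, which also serves in the assembly of respiratory complex I, had 2.93 CPM per kb, *Acad11* 2.31 CPM per kb and *Acad10* 1.34 CPM per kb. By coding length *Acad9* (12.8 CPM per kb) stood just above *Acads*. By CPM *Acad9* (4.59 log2 CPM) and *Acad11* (4.50) were above *Acads* (3.94), and *Acad10* (3.02) was below it. Annotated exons bear on the value of *Acadvl*, since 42.9% of its exonic bases also belong to *Dvl2* on the opposite strand (20.2 CPM). Whether the authors' counting kept the strands apart is not given in the sources used here.

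The mitochondrial trifunctional protein carries out the last 3 steps on long chains and is built from alpha subunits (*Hadha*) and beta subunits (*Hadhb*). *Hadha* had 6.63 log2 CPM, the highest CPM of the mitochondrial cycle, and *Hadhb* had 3.66 log2 CPM, below the median of all genes. Per kb of exon these were 11.4 and 1.92 CPM per kb, a ratio of 5.93, and per kb of coding sequence the ratio was 4.88. Both genes lie head to head on chromosome 5, *Hadha* on the minus strand from 30118304 to 30155162 and *Hadhb* on the plus strand from 30155248 to 30184593. The 85 bases between their annotated starts are shown because both genes of this unequal pair begin at its ends, and 69.4% of these bases are G or C. They are given on the plus strand (build GRCm38.p6, chr5:30155163-30155247, sequence from RefSeq), in lower case throughout.

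*Hadha*-*Hadhb* gap: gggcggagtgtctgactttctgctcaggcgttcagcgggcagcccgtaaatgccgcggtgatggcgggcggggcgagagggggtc

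The stretch is the region shared by both starts in the annotation, and its letters were not compared with any motif. The annotated exons of *Hadha* and *Hadhb* do not overlap each other. Both models hold much sequence outside the coding part, with 8730 exonic and 2289 coding bases in *Hadha* and 6595 and 1425 in *Hadhb*.

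Enzymes for shorter chains had levels between these subunits on the CPM scale. *Hadh*, the short-chain hydroxyacyl-CoA dehydrogenase, had 5.28 log2 CPM, *Echs1*, the short-chain enoyl-CoA hydratase, had 5.15 log2 CPM, and *Acaa2*, a mitochondrial thiolase, had 4.11 log2 CPM. *Echs1* had the highest ratio of exon length to coding length (8286 and 870 bases) of the 37 genes, at 4.28 CPM per kb of exon and 40.7 CPM per kb of coding sequence. The exons of all its annotated transcripts merged into only 4 parts, so its exon length need not be that of 1 transcript. *Acat1*, the thiolase that acts on acetoacetyl-CoA and also serves ketone body and isoleucine breakdown, had 17.7 CPM per kb of exon (6.06 log2 CPM), second to *Acadl* within the mitochondrial cycle. Per kb of coding sequence *Acat1* had the highest level within the mitochondrial cycle, 52.4 CPM per kb.

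**Figure D2:**
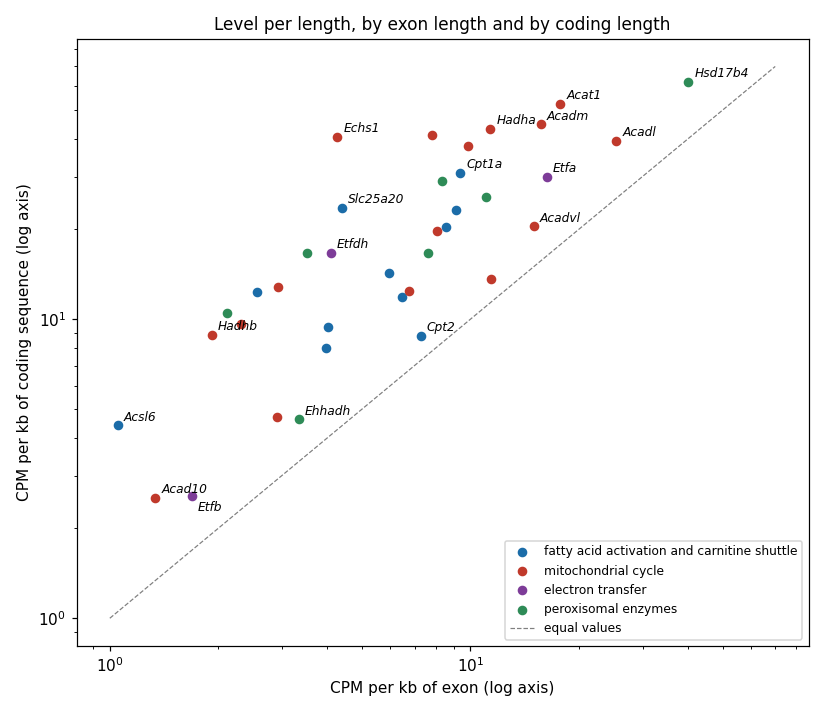
Each point is 1 of 37 genes, with its mean CPM per kb of merged exons on the x axis and per kb of merged coding sequence on the y axis, both log axes, coloured by role, and with selected genes named. Points far above the dashed line of equal values, such as *Echs1* (4.28 and 40.7 CPM per kb), have many merged exonic bases outside the coding sequence. *Hsd17b4* is highest on both axes.

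Unsaturated fatty acids need auxiliary enzymes that move or reduce double bonds. The mitochondrial dienoyl-CoA reductase *Decr1* had 9.86 CPM per kb and the mitochondrial enoyl-CoA isomerase *Eci1* had 8.09 CPM per kb. Their counterparts *Decr2* and *Eci2*, listed here with the peroxisomal enzymes, had 7.62 and 3.52 CPM per kb. Per length *Decr1* was thus above *Decr2* and *Eci1* above *Eci2*. The ratios were 1.29 and 2.30 per kb of exon and 2.29 and 1.19 per kb of coding sequence. By CPM *Decr1* (5.26 log2 CPM) was also above *Decr2* (4.34), whereas *Eci1* (4.10) was below *Eci2* (4.28). *Acot2*, a mitochondrial thioesterase that frees fatty acids from coenzyme A, had 2.68 log2 CPM, the lowest CPM of the mitochondrial cycle. *Acot2* has a close paralog, *Acot1*, which had no value, and how reads common to both were counted is not given in the sources used here.

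The electron transfer flavoprotein is a pair of 1 alpha subunit (*Etfa*) and 1 beta subunit (*Etfb*), and *Etfdh* encodes the enzyme that passes its electrons to ubiquinone. *Etfa* had 4.90 log2 CPM and *Etfdh* 4.94 log2 CPM, whereas *Etfb* had 0.97 log2 CPM, or 1.96 CPM, and ranked 12628 of 15838 genes. *Etfa* was 9.66 times above *Etfb* per kb of exon and 11.7 times per kb of coding sequence. *Etfb* lies on the plus strand of chromosome 7, from 43444083 to 43457800. In the annotation 53.0% of its exonic bases, 617 bases, also belong to *Gm45233*, a gene on the same strand that had no value. This was the largest share of exonic bases that any of the 37 genes had in common with another gene. Of the 37 genes, 16 shared some exonic bases with another gene, and 2, *Etfb* and *Acadvl*, shared over 20% of them. The part of this overlap in the low value of *Etfb* was not tested.

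Among the peroxisomal enzymes, *Hsd17b4* stood far above the others. It encodes the D-bifunctional protein, which carries out hydration and the second dehydrogenation on branched and very long chains, and it had 7.10 log2 CPM or 40.2 CPM per kb, the highest of the 37 genes by CPM and per length. It lies on chromosome 18, on the plus strand from 50128201 to 50196269, and ranked 1143 of 15838 genes. *Ehhadh*, the L-bifunctional protein with the same pair of activities on other substrates, had 3.32 log2 CPM or 3.35 CPM per kb. The ratio of *Hsd17b4* to *Ehhadh* was 12.02 per kb of exon and 13.4 per kb of coding sequence.

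By CPM the other genes listed with the peroxisomal enzymes lay between these. *Ech1*, a dienoyl-CoA isomerase, had 11.03 CPM per kb (4.65 log2 CPM). *Acaa1a*, a peroxisomal thiolase, had 8.35 CPM per kb (5.20 log2 CPM), below the mitochondrial thiolase *Acaa2* at 11.4 CPM per kb of exon, although by coding length the order turned (29.0 against 13.7 CPM per kb). *Acox3*, an oxidase for branched-chain acyl-CoA, had the lowest level per kb of exon in this role, 2.11 CPM per kb (4.61 log2 CPM).

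Other genes of the pathway were listed in the same way as background to these members, and 22 of 26 had a value, all but *Acot1*, *Acot3*, *Abcd2* and *Cd36*. Their median was 3.97 log2 CPM, and 4 of 22 were above the 75th percentile of all genes. Among peroxisomal import and carrier genes, levels were 20.4 CPM per kb for the import receptor *Pex5*, 19.9 CPM per kb for the sterol carrier *Scp2* and 10.7 CPM per kb for the transporter *Abcd3*. *Hsd17b10*, a mitochondrial dehydrogenase, had 28.3 CPM per kb. Of the regulators, the receptor *Ppara* had 0.86 CPM per kb and the coactivator *Ppargc1a* 0.69, both below the 3.45 CPM per kb of the median gene, while the receptor *Ppard* had 5.09 CPM per kb. *Acacb*, the acetyl-CoA carboxylase whose malonyl-CoA inhibits carnitine palmitoyltransferase 1, had 3.81 log2 CPM, and *Mlycd*, which breaks malonyl-CoA down, had 4.04 log2 CPM. Per kb of exon *Acacb* (1.46 CPM per kb) was below the median gene and *Mlycd* (5.55 CPM per kb) above it. Per kb of coding sequence they had 1.90 and 11.2 CPM per kb.

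**Figure D3:**
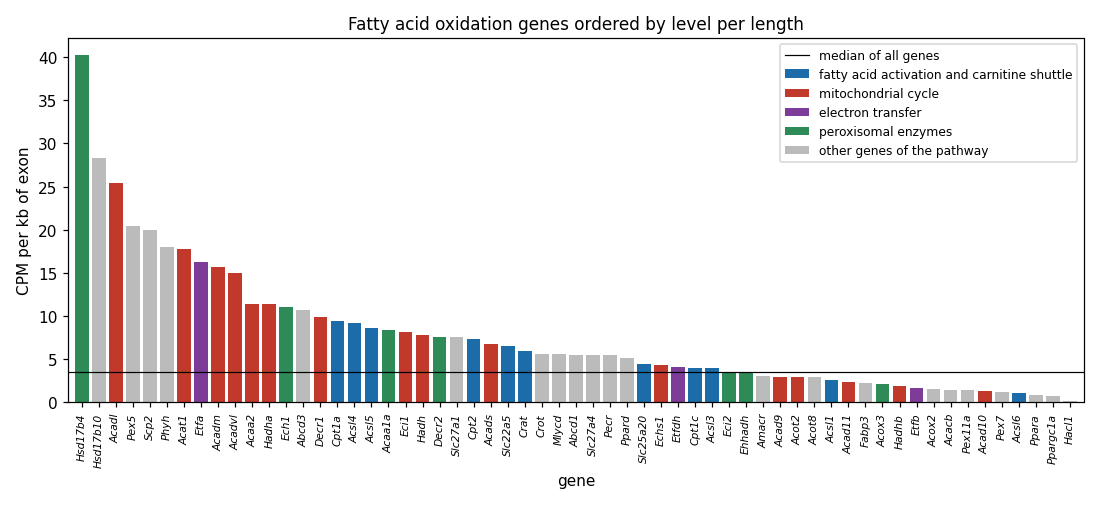
Bars give the mean CPM per kb of merged exons (y axis) for 37 fatty acid oxidation genes, coloured by role, and 22 other genes of the pathway, in grey, in falling order along the x axis; no error is drawn because only means were analysed. The line is the median of all genes (3.45 CPM per kb), and 27 of the 37 genes stand above it, with *Hsd17b4* (40.2), *Acadl* (25.4) and *Acat1* (17.7) the highest among them.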

How the data were processed

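RNA from Descemet membranes with CEC was measured in 12 libraries, 3 per group of genotype and sex. The authors prepared stranded total RNA libraries, aligned paired-end reads to GRCm38 with Hisat2, scaled counts to CPM by TMM and fitted limma with voom. Versions, the counter and the annotation are not given in the sources used here. The methods require a level above 1 CPM to call a gene differentially expressed, and the tables still hold 1431 genes with a mean under 1 CPM, so the filter behind their rows is not known. The sample records describe pooled membranes and the methods membranes taken as pairs, so the number of mice behind a library is uncertain. In the 3 tables the authors deposited, the mean level is on the log2 scale (log2 CPM over libraries) and was equal in all 3. The remaining value columns hold the authors' own comparisons for genotype, sex and their interaction (fold changes, t, p and log odds), and none of them was used. No test could therefore be made, and the planned comparisons of KO with WT and of the sexes were not run. Back on the linear scale, the means summed to 977011 CPM.

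Merged exon and coding lengths and positions came from GENCODE M21 (GRCm38), which held 15824 of the 15838 genes, and 12999 had a coding length. Lengths were checked on simulated data. Python 3.11.15 and pandas 2.3.3 were used. Genes were named by a rule that takes every member by role, and pairs within a family or step were added after the files had been read. Of the genes on the lists, 2 are not reported here. The members and lists were chosen with earlier results of these data known. The alternatives were coding length in place of exon length, and ranks among genes of at least 1 CPM.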

Additional observations from a re-analysis of the deposited data

How the results depend on the processing

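The levels per length depended on the gene model. Exon length merges the exons of all annotated transcripts of a gene, and coding length leaves out the bases among them that are not coding. With coding length the median was 12.3 in place of 5.96 CPM per kb for activation and shuttle, 20.1 in place of 7.94 for the mitochondrial cycle, 16.7 in place of 4.10 for electron transfer and 16.6 in place of 7.62 for peroxisomal enzymes. Electron transfer thereby went from the lowest to the second highest median of the 4 roles, at 16.7 against 16.6 for peroxisomal enzymes. The median of its 3 genes was *Etfdh* on both scales, with 7505 exonic and 1848 coding bases. The medians that electron transfer passed came from other genes by coding length. For peroxisomal enzymes the median gene was *Eci2* in place of *Decr2*, and for activation and shuttle *Acsl1* in place of *Crat*. This move therefore rests on few gene models. Against the median of the 15824 genes with an exon length, 27 of the 37 genes were higher per kb of exon. Against the median of the 12999 genes with a coding length, 21 were higher per kb of coding sequence. These counts thus differ in their reference genes as well as in the length used. Of 18 pairs compared within a family or step, 3 changed their order. The pairs were picked and do not cover every pair of a family. *Acsl1* with *Acsl3* and *Acad9* with *Acads*, which are not among them, also changed their order. Ranked only within the 14407 genes whose mean reached 1 CPM, the median percentile was 56.6 in place of 60.5 for activation and shuttle, 62.8 in place of 66.1 for the mitochondrial cycle, 63.2 in place of 66.5 for electron transfer and 58.4 in place of 62.1 for peroxisomal enzymes. With no spread between libraries, no move could be set against an error. Alternatives that need values per library (another scaling, filter or pseudocount, and leaving out each library) were not run. No paired analysis was possible because the results come from no test and the labels number no pairs.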
